A study of Mus musculus with 8 samples.

Results

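The 34 genes described here carry glucose from the cell surface to acetyl-CoA in the mitochondrion: glucose uptake, glycolysis, lactate production and transport, and pyruvate oxidation. They were taken as a fixed list of symbols, with GENCODE M21 pairing symbols and Ensembl identifiers, from the 53465 genes in the count tables, and all 34 were found. RNA was sequenced from CD4+ CD8+ (double-positive) thymocytes, the stage at which T cell precursors first display a rearranged receptor, in NOD/ShiLtJ (NOD) mice, known for spontaneous autoimmune diabetes, and in C57BL/6J mice, a common inbred strain that is free of it. All cells were live single cells sorted by flow cytometry from dissociated thymus with antibodies to CD4 and CD8a. The labels used here give no treatment, age or sex and no gene alteration for either strain. The 8 libraries, 4 per strain, are titled with numbers after the letters B and T, whose meaning is not explained, so libraries of the same strain and B number were summed. This gave 2 samples per strain, called sample 1 and sample 2 after the B number. Nothing states that these are separate animals, so the p-values given here reflect the scatter of these samples alone, and that scatter may be technical.

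NOD libraries held 23.53 to 30.37 M reads in genes, and C57BL/6J libraries 8.53 to 15.7 M. Levels are counts per M reads (CPM) after TMM scaling, and levels of different genes are compared only per kilobase of exon. The sorted population was checked with 12 markers of double-positive thymocytes, led by Rag1, a recombinase of receptor gene assembly. Their summed level was 17924 to 21646 CPM in NOD libraries and 23681 to 26898 CPM in C57BL/6J libraries, without overlap. By edgeR 0 of the 12 were called different, beside 3.68% of all genes tested. An unadjusted p under 0.05 was found for 4, beside 13.1% of all genes. All 4 NOD libraries lay below all 4 C57BL/6J libraries for 5 of the 12, beside 8.84% of all genes, and above for 1, beside 8.20%. DESeq2 called 1 of the 12 lower, and limma-voom called 3 lower and 1 higher. A list of 18 genes of cycling cells set 1 sample apart. Their summed level was 965 and 1346 CPM in the 2 libraries of NOD sample 1 and 4983 and 5236 CPM in those of NOD sample 2, against 3643 to 4925 CPM in the C57BL/6J libraries. In sorted bulk cells, fewer cycling cells and less of these RNAs per cell cannot be told apart. Values are therefore given sample by sample.

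Glycolysis splits glucose into pyruvate with a small gain of ATP. Pyruvate is then reduced to lactate and exported, or carried into the mitochondrion, where the pyruvate dehydrogenase complex turns it into acetyl-CoA for the citrate cycle. Pyruvate dehydrogenase kinases switch that complex off by phosphorylation, and phosphatases switch it back on. In the thymus, cycling precursors are known for high use of glucose, whereas most double-positive cells are small and resting.

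No gene of the 33 that could be tested was called different between NOD and C57BL/6J thymocytes. Calls were made in edgeR's quasi-likelihood test, fitted over 17291 genes, where the Benjamini-Hochberg adjusted p fell under 0.05. That test called 3.68% of all genes, 330 higher and 307 lower in NOD, and the smallest adjusted p among the 33 was 0.120. DESeq2 called 0 of the 33 and limma-voom on the 8 libraries called 1. At an unadjusted p under 0.05 there were 4 of 33 (12.1%), namely Gpi1, Eno1, Eno2 and Pkm, against 13.1% of all genes tested, so their share was near the background. The remaining gene, the aldolase Aldoc, had 0 and 22 counts in NOD samples 1 and 2 and 6 and 6 counts in C57BL/6J samples 1 and 2. It did not pass the filter on low counts. A count of 0 in NOD sample 1 allows up to 3 counts, or 0.0629 CPM.

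The differences were mostly small and the estimates were tighter than for most genes. The log2 fold change (NOD over C57BL/6J) lay within 0.5 of 0 for 27 of 33 genes, and the 95% interval lay within 1 of 0 for 26. The median standard error (SE) was 0.20, against 0.33 over all genes tested, and the median level was 34.4 CPM, against 9.35 CPM over all genes. The fold change was negative for 20 genes (60.6%) and positive for 13, against 47.7% negative over all genes. Its median was -0.11, against 0.02 over all genes. Summed over the 34 genes, NOD samples 1 and 2 held 2078 and 2211 CPM, against 2521 and 2201 CPM in C57BL/6J samples 1 and 2, so NOD sample 2 lay between the C57BL/6J samples.

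A count of genes whose libraries did not overlap between strains was larger in the lower direction. All 4 NOD libraries lay below all 4 C57BL/6J libraries for 9 of 33 genes (27.3%), against 8.84% of all genes tested. These were Slc2a1, Gpi1, Pfkl, Pgam1, Eno1, Pkm, Pdha1, Dlat and Pfkfb3. All NOD libraries lay above for 4 of 33 (12.1%), against 8.20% of all genes, and these were Eno2, Pdp1, Tigar and Mpc1. Libraries of 1 sample are not independent, the genes were measured at higher levels than most, and none of the 13 was called. The part of level in these counts was not tested. Such genes were also found in other lists described below. All NOD libraries lay below for 4 of 23 citrate cycle genes, 3 of 10 pentose phosphate genes and 4 of 21 of the hypoxia-inducible factor pathway. They lay above for 0 in each of these lists. For 12 markers of double-positive thymocytes they lay below for 5 and above for 1. For 24 other glycolysis and pyruvate genes they lay below for 4 and above for 6. Neither was found among 19 regulators of glucose use.

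Per kilobase of exon, the lactate dehydrogenase gene Ldhb stood above all others. Its level was 148 to 238 CPM per kilobase over the 4 samples, and the next, Ldha, had 43.0 to 58.5. Below it followed Pdha1, Slc16a1, Hif1a, Pkm and Gapdh, in that order of mean level, down to 17.3 CPM per kilobase in the lowest sample of Gapdh. Each of these overlapped its neighbour in the order. Of the 33 neighbouring pairs in the whole order, 29 overlapped over the 4 samples. The 4 breaks came between Ldhb and Ldha, Pdhb and Mpc1, Slc2a1 and Slc2a3, and Pgam1 and Tigar. The 5 lowest genes were Pfkfb2, Hk2, Eno2, Slc16a3 and Aldoc, the last at no more than 0.119 CPM per kilobase. The length counts the exon bases of all transcripts of a gene and can far exceed that of 1 transcript. Pfkp has 13.4 kilobases of exon, but its first listed transcript holds 2643 runs of 37 bases. The order by the length of the transcripts in use was not tested.

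**Figure D1:**
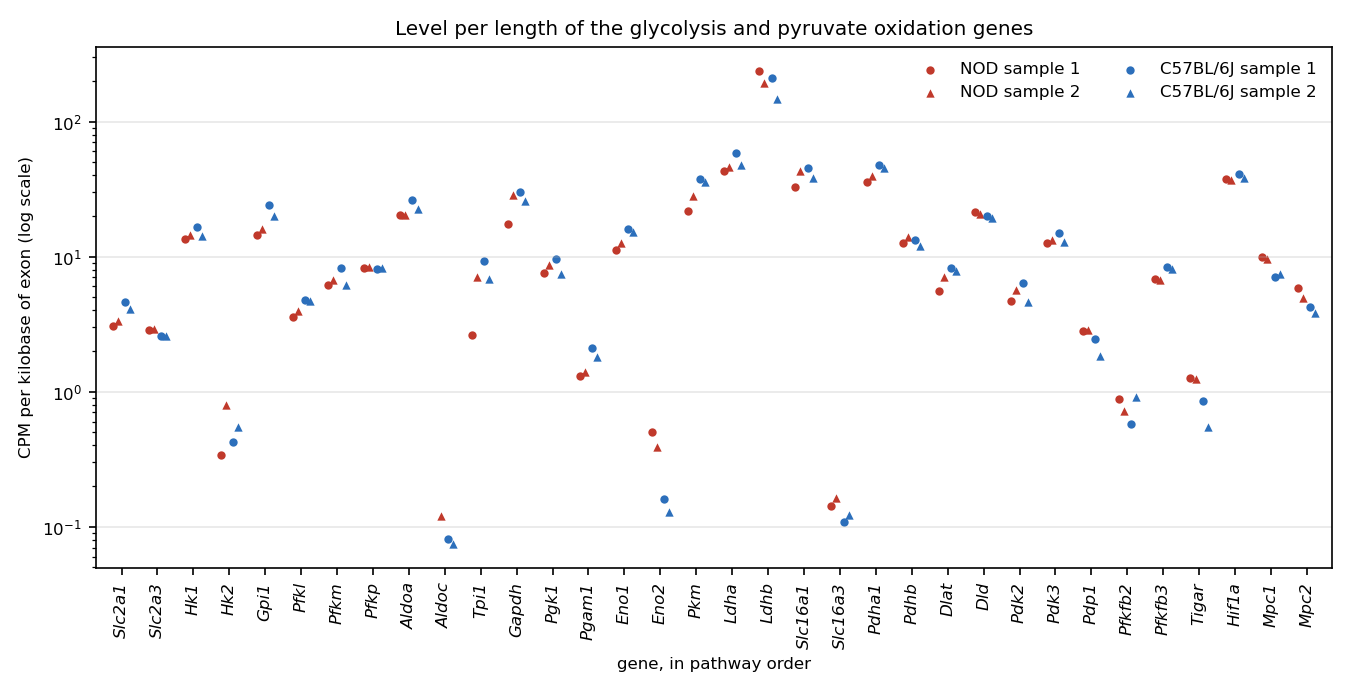
Level per length (vertical axis, CPM per kilobase of exon, log scale) of the 34 genes in pathway order, with 1 point per summed sample, 2 per strain. Ldhb tops the set at 148 to 238 CPM per kilobase, and the Aldoc value of 0 in NOD sample 1 cannot be drawn on a log axis.

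Several glycolytic genes have many processed pseudogenes, near copies that can take or lose reads. As a measure of this, each run of 37 bases, the length of the shorter read, in the first listed transcript of a gene was searched for in the transcripts of all other genes on both strands. More than 25% of the windows were shared for 13 of the 34 genes, and 0% for 14. Gapdh shared 91.6%, Pgk1 68.2%, Pfkfb2 66.8%, Eno1 61.9%, Mpc1 46.0%, Pkm 44.7% and Pgam1 41.9%. Gpi1 shared 32.6%, Ldhb 36.6% and Ldha 29.2%. Not all of this is pseudogenes, since genes that overlap a member at its own locus count too. Over all transcripts, Pfkfb2 shared 1226 of 1361 such windows with Gm29427, a protein-coding gene that overlaps it on the same strand. Mpc1 shared 371 of 628 with the overlapping 4930506C21Rik, and Gpi1 602 of 1277 with the overlapping Gm26762. Levels and differences of these genes are uncertain to the extent that such reads were dropped or misplaced. The counter for reads with more than 1 alignment was 0 in all 8 libraries. How such reads were handled before counting is not given in the sources used here. The genome build is that of C57BL/6J, and the effect of NOD sequence differences on alignment was not tested.

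**Figure D2:**
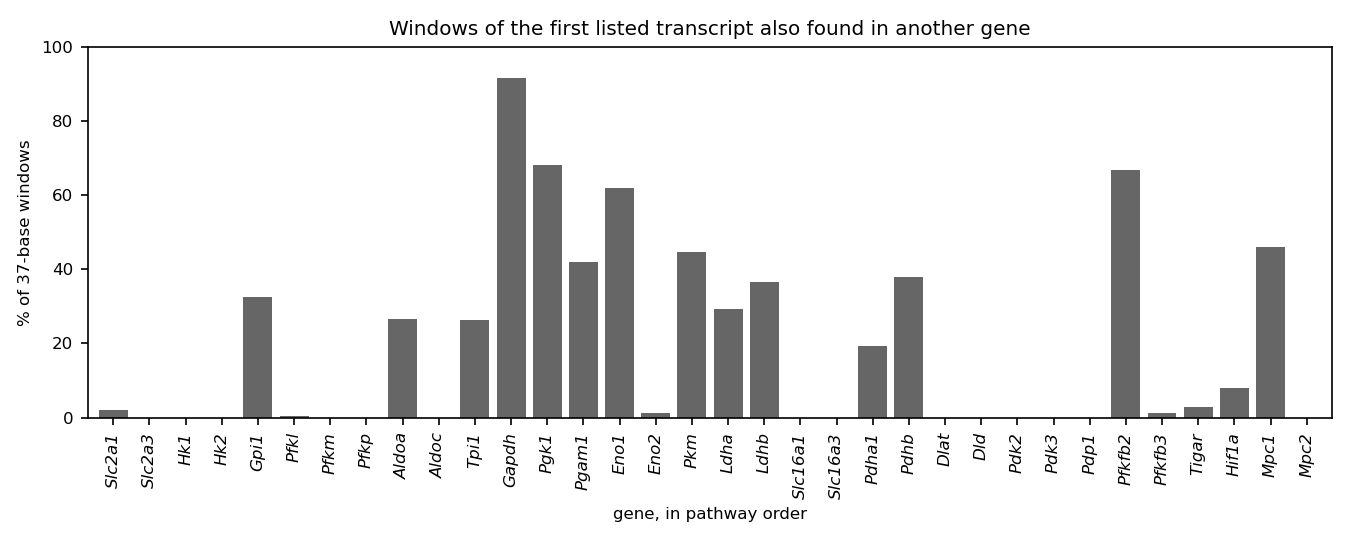
Share of 37-base windows of the first listed transcript (vertical axis, %) that also occur in a transcript of another gene, for the 34 genes in pathway order. Gapdh has the highest share at 91.6%, and 14 genes have 0%.

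Glucose enters through transporters, and of the pair measured here Slc2a1 was the higher per kilobase of exon, by more in C57BL/6J than in NOD samples. That order depends on the length used. Slc2a3 has 7.25 kilobases of exon over all its transcripts but 3923 windows in the first listed one, and Slc2a1 has 3.51 kilobases and 3224 windows. Slc2a1, which encodes the widely expressed transporter GLUT1 (chr4:119108711-119137983, GRCm38, plus strand), had 10.8 and 11.6 CPM in NOD samples 1 and 2, against 16.2 and 14.3 CPM in C57BL/6J samples 1 and 2. The NOD values lay below both C57BL/6J values, with a log2 fold change of -0.44 ± 0.25 (SE) and an adjusted p of 0.546. Slc2a3, which encodes the high-affinity transporter GLUT3, had 20.6 and 21.1 CPM in NOD and 18.6 and 18.5 CPM in C57BL/6J (0.17 ± 0.21, adjusted p = 0.850). Per kilobase, Slc2a3 made up 48.0% and 46.8% of the pair in NOD samples, against 35.7% and 38.6% in C57BL/6J samples. The libraries did not overlap, at 43.4% to 49.7% in NOD and 34.7% to 40.5% in C57BL/6J. Without scaling by length, Slc2a3 was the larger part of the pair, at 65.6% and 64.5% in NOD samples and 53.4% and 56.5% in C57BL/6J samples. For every share given here, the exact permutation test over 2 against 2 samples (two-sided) cannot give a p below 0.33, which is the p found for this share.

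Hexokinase traps glucose as its phosphate, and nearly all hexokinase RNA was Hk1, the form most tissues use. Hk1 (chr10:62268855-62379908, GRCm38, minus strand) had 115 and 122 CPM in NOD samples and 141 and 120.1 CPM in C57BL/6J samples, overlapping ranges with a log2 fold change of -0.14 ± 0.17 (adjusted p = 0.846). It made up 97.5% and 94.7% of Hk1 and Hk2 per kilobase in NOD, against 97.5% and 96.3% in C57BL/6J. Hk2, the inducible form known from growing cells, had 2.03 CPM in NOD sample 1 and 4.76 CPM in NOD sample 2, which lay on either side of the 2.52 and 3.24 CPM in C57BL/6J (0.24 ± 0.47, adjusted p = 0.908).

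Gpi1, the isomerase of the next step, had the smallest unadjusted p among the genes below 0, with Pkm close to it. Gpi1 (chr7:34201330-34230336, GRCm38, minus strand) had 93.4 and 104 CPM in NOD samples 1 and 2, against 154 and 129.8 CPM in C57BL/6J samples 1 and 2. Its libraries held 86.5 to 104 CPM in NOD and 124 to 168 CPM in C57BL/6J, so the strains did not overlap. The log2 fold change was -0.53 ± 0.17 (95% interval -0.91 to -0.15), with an unadjusted p of 0.0122 and an adjusted p of 0.168. With the 8 libraries in limma-voom and the sample as a random block, which called 2.67% of all genes lower, Gpi1 was the 1 gene of 33 called (log2 fold change -0.53 ± 0.13, adjusted p = 0.0441). Over all alternatives its adjusted p ran between 0.0441 and 0.750. With each of the 4 samples left out in turn, its log2 fold change lay between -0.66 and -0.40.

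Phosphofructokinase commits the sugar to glycolysis and has 3 genes, all of them measured here. Pfkp, the platelet type, was the highest per kilobase in all but 1 sample, with 110.3 and 111 CPM in NOD and 109 and 111 CPM in C57BL/6J (log2 fold change 0.02 ± 0.16, adjusted p = 0.982). Pfkl, the liver type, had 23.6 and 26.6 CPM in NOD and 31.9 and 31.2 CPM in C57BL/6J (-0.33 ± 0.19, adjusted p = 0.575), with no overlap of libraries. Pfkm, the muscle type, had 20.7 and 22.5 CPM in NOD and 27.3 and 20.6 CPM in C57BL/6J (-0.15 ± 0.22, adjusted p = 0.875). Pfkl made up 19.7% and 20.9% of the 3 genes per kilobase in NOD, against 22.7% and 24.5% in C57BL/6J (exact p = 0.33). Pfkm overlaps the exons of Senp1 on the opposite strand, whose summed counts were 778% of those of Pfkm, and Pfkp those of Pitrm1 at 63.5%. The strand setting of the counting was not given in the sources used here, so reads of such partners may not be kept apart.

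The regulators of fructose bisphosphate set the pace of phosphofructokinase. Pfkfb3, which encodes a strong activating enzyme of glycolysis, was the highest of them per kilobase (chr2:11471433-11554077, GRCm38, minus strand). It had 51.7 and 50.6 CPM in NOD and 63.0 and 60.6 CPM in C57BL/6J, with no overlap of libraries (log2 fold change -0.27 ± 0.16, adjusted p = 0.591). Tigar, a p53 target that lowers the activator, had 4.65 and 4.55 CPM in NOD and 3.09 and 1.99 CPM in C57BL/6J. All NOD libraries of Tigar lay above all C57BL/6J libraries, with a log2 fold change of 0.86 ± 0.39 (95% interval -0.02 to 1.74) and an adjusted p of 0.397. Pfkfb2, which makes the same activator as Pfkfb3, had 6.35 and 5.17 CPM in NOD and 4.20 and 6.65 CPM in C57BL/6J, which overlapped (0.09 ± 0.36, adjusted p = 0.958). Its value is uncertain, since its exons overlap those of Yod1, whose summed counts were 514% of those of Pfkfb2. They also overlap, on the same strand, the exons of Gm29427, which had 1 count.

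In the lower part of glycolysis, from aldolase to pyruvate kinase, most genes lay below 0, and the samples of NOD differed from each other for Tpi1 and Gapdh. Aldoa, the aldolase that splits the sugar (chr7:126795234-126800751, GRCm38, minus strand), had 59.3 and 58.9 CPM in NOD and 76.3 and 65.8 CPM in C57BL/6J (log2 fold change -0.27 ± 0.17, adjusted p = 0.621). Pgk1, which makes ATP at the step after Gapdh, had 17.1 and 19.5 CPM in NOD and 21.5 and 16.8 CPM in C57BL/6J (-0.06 ± 0.23, adjusted p = 0.953). Pgam1, the mutase that follows, had 2.60 and 2.77 CPM in NOD and 4.20 and 3.57 CPM in C57BL/6J, with no overlap (-0.53 ± 0.37, adjusted p = 0.667).

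Tpi1, the isomerase that lets both products of aldolase be used, had the lowest log2 fold change of the set (chr6:124810586-124814296, GRCm38, minus strand). It had 7.27 CPM in NOD sample 1 and 19.5 CPM in NOD sample 2, against 25.4 and 18.8 CPM in C57BL/6J samples 1 and 2. NOD sample 2 thus lay between the C57BL/6J samples, and the value of -0.72 ± 0.47 (adjusted p = 0.653) rested on NOD sample 1. Gapdh, the dehydrogenase often used as a loading control (chr6:125161715-125166467, GRCm38, minus strand), had 71.7 CPM in NOD sample 1 and 119 CPM in NOD sample 2, against 124 and 107 CPM in C57BL/6J (-0.28 ± 0.24, adjusted p = 0.755). Its log2 fold change was 0.04 without NOD sample 1. Gapdh overlaps the exons of Iffo1 on the opposite strand, whose summed counts were 25.1% of those of Gapdh.

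Pyruvate kinase ends the pathway and is encoded in most tissues by Pkm (chr9:59656368-59679375, GRCm38, plus strand). Pkm had 109 and 141 CPM in NOD samples 1 and 2, against 189 and 179 CPM in C57BL/6J samples 1 and 2. Its libraries held 96.4 to 151 CPM in NOD and 169 to 203 CPM in C57BL/6J, so both NOD samples lay below both C57BL/6J samples. The log2 fold change was -0.56 ± 0.18 (95% interval -0.97 to -0.15), with an unadjusted p of 0.0125 and an adjusted p of 0.171.

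Of the enolase genes Eno1 and Eno2, Eno1 made up nearly all per kilobase, while Eno2, the minor gene of this pair, lay in the other direction. Eno1, the common form (chr4:150236721-150248879, GRCm38, plus strand), had 60.0 and 67.3 CPM in NOD samples 1 and 2, against 86.7 and 81.0 CPM in C57BL/6J samples 1 and 2. The strains did not overlap, and the log2 fold change was -0.40 ± 0.16 (95% interval -0.77 to -0.03, unadjusted p = 0.0385, adjusted p = 0.332). Eno2, the form known from neurons (chr6:124760053-124769673, GRCm38, minus strand), had 2.35 and 1.82 CPM in NOD samples, from 112 and 103 counts, against 0.751 and 0.608 CPM in C57BL/6J samples, from 17 and 15 counts. Its libraries held 1.36 to 2.39 CPM in NOD and 0.320 to 1.32 CPM in C57BL/6J, which did not overlap by a narrow margin. Its log2 fold change of 1.61 ± 0.47 (95% interval 0.55 to 2.67) was the highest of the set, with an unadjusted p of 0.00722 and an adjusted p of 0.120. Eno2 made up 4.28% and 2.99% of Eno1 and Eno2 per kilobase in NOD, against 0.980% and 0.851% in C57BL/6J (exact p = 0.33). This share leaves out Eno3, at 3.88 and 4.07 CPM in NOD and 2.39 and 2.27 CPM in C57BL/6J. It also leaves out Eno1b, at 2.22 and 2.38 CPM in NOD and 3.31 and 2.76 CPM in C57BL/6J. The part of Eno2 in all enolase RNA was not tested.

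Oxygen-dependent control of some glycolytic genes runs through hypoxia-inducible factor, which binds the letters ACGTG or GCGTG. Which of the 34 genes it controls in these cells was not tested. The 250 bases upstream of the RefSeq transcript start nearest to the gene start (GRCm38.p6) were searched for those letters on either strand. A window was at hand for 32 of the 34 genes, all but Slc2a3 and Pdp1, and 23 of the 32 (71.9%) held them, against 38.6% of all 32851 windows in the table. The median GC content was 62.6% in the 32 windows and 52.4% in all windows, and its part in that difference was not tested. The E-box CACGTG, which holds the letters on both strands and so counts as 2 positions, was found in 5 of the 32 genes and in 6.02% of all windows.

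The windows of the 4 genes with an unadjusted p under 0.05 are shown with that of Ldha, the one with the most positions, so that the letters can be compared. They run 5′ to 3′ on the strand of the gene, and capitals mark the letters found. Gpi1 lies at chr7:34230337-34230586 (minus strand), Eno1 at chr4:150236458-150236707 (plus strand), Eno2 at chr6:124769674-124769923 (minus strand), Pkm at chr9:59656326-59656575 (plus strand) and Ldha at chr7:46845554-46845803 (plus strand).
Gpi1: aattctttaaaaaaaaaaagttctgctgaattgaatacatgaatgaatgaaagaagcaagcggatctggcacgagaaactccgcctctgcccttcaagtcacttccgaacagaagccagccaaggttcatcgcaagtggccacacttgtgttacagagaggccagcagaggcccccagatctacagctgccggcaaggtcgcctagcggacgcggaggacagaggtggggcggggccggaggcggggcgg
Eno1: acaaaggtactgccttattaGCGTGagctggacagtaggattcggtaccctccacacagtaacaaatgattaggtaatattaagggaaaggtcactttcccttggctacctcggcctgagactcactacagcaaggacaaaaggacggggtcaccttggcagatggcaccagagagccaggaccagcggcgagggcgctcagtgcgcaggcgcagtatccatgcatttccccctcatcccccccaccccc
Eno2: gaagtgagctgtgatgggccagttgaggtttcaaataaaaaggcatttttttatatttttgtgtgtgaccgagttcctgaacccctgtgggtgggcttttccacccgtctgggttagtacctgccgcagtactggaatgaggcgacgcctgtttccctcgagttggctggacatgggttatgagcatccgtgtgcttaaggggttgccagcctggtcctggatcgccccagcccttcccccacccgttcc
Pkm: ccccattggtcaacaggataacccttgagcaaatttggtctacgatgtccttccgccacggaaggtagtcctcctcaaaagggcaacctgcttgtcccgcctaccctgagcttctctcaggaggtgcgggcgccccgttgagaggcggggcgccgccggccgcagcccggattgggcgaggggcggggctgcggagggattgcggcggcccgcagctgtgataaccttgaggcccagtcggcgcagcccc
Ldha: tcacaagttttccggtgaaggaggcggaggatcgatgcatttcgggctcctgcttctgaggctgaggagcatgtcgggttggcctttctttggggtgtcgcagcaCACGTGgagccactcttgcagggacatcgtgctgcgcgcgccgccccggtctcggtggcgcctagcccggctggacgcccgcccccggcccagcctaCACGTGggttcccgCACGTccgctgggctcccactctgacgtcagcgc
The windows of Gpi1, Eno2 and Pkm held 0 positions, that of Eno1 held 1, and that of Ldha held 5. Of the 3 genes with an unadjusted p under 0.05 that lay below 0, 1 held the letters in this window, and Eno2, which lay above 0, did not. A match describes letters and not a bound site. Bases just after the RefSeq start were found in a GENCODE M21 transcript of the gene for Gpi1, Eno2 and Pkm, but not for Eno1 and Ldha. The window of Ldha lies inside the gene, which begins at 46841475 in GENCODE M21, and that of Pkm lies partly inside. Other starts of these genes are not shown. Pkm had 2 windows in all and the letters in 1 of them, so its count of 0 holds only for the window shown. Gpi1 and Eno2 had 1 window each.

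Lactate dehydrogenase converts pyruvate and lactate into each other, and Ldhb, the heart form, predominated in both strains. Ldhb (chr6:142490249-142507957, GRCm38, minus strand) had 374 and 302 CPM in NOD samples 1 and 2, against 329 and 232 CPM in C57BL/6J samples 1 and 2. The ranges overlapped, with a log2 fold change of 0.27 ± 0.21 (95% interval -0.20 to 0.74, adjusted p = 0.721). Ldha, the form known from muscle and fast-growing cells, had 142 and 153 CPM in NOD and 194 and 159 CPM in C57BL/6J (-0.26 ± 0.17, adjusted p = 0.645).

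Taken per kilobase, the balance of the pair separated the strains although neither gene was called. Ldhb made up 84.7% and 80.6% of the pair in NOD samples 1 and 2, against 78.2% and 75.5% in C57BL/6J samples 1 and 2. The libraries held 79.8% to 85.4% in NOD and 74.9% to 78.6% in C57BL/6J and did not overlap. The difference of means was 5.84 percentage points, with an exact p of 0.33, the smallest that 4 samples allow. It was 3.77 points without NOD sample 1 and 7.91 points without NOD sample 2, and 7.19 and 4.49 points without C57BL/6J samples 1 and 2. Without scaling by length the shares were 72.5% and 66.3% in NOD against 62.9% and 59.3% in C57BL/6J, and over windows unique to each gene 87.2% and 83.6% against 81.4% and 79.0%.

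**Figure D3:**
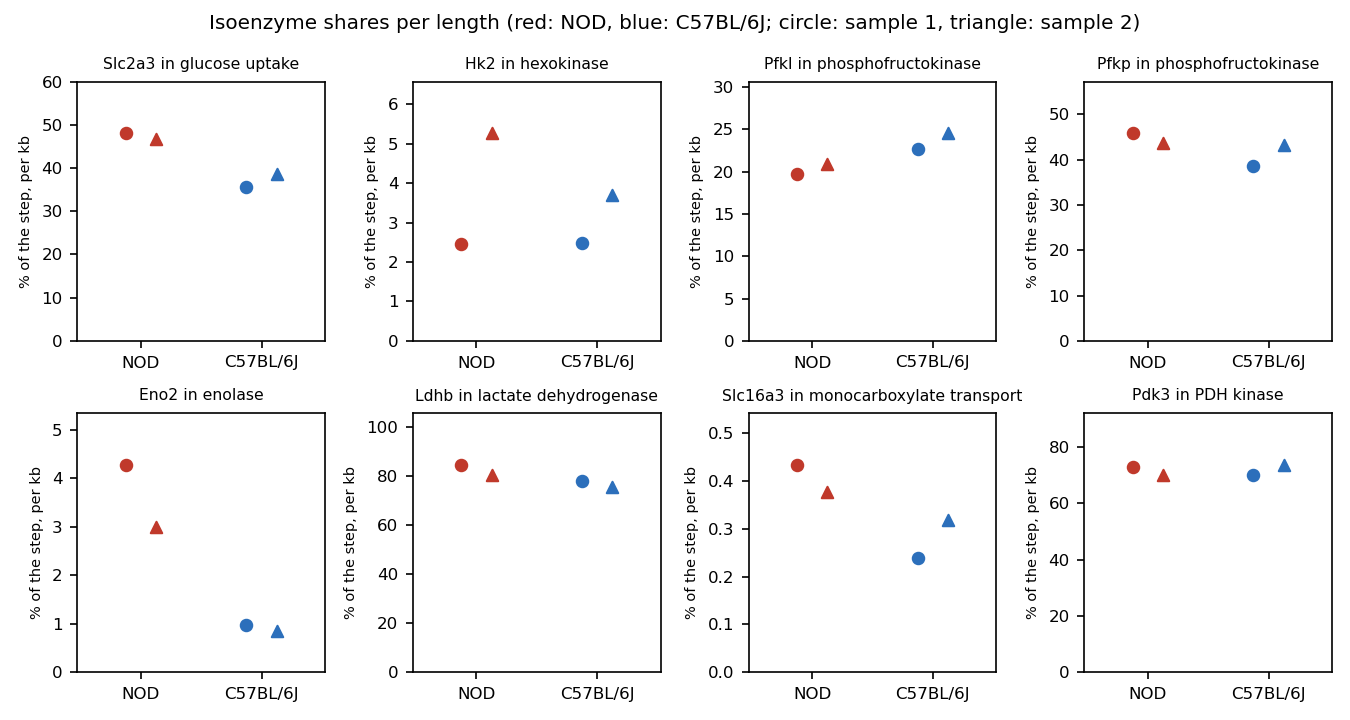
Share of 1 gene in its step (vertical axis, % of the summed CPM per kilobase) in the 2 samples of each strain, red for NOD and blue for C57BL/6J. The NOD points lie above the C57BL/6J points for Slc2a3, Eno2 and Ldhb and below them for Pfkl, and they lie above for Pfkp and Slc16a3 too, whose libraries overlapped; each exact p over 2 against 2 samples is at least 0.33.

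Lactate leaves the cell through monocarboxylate transporters, of which Slc16a1 was the abundant one. Slc16a1 (chr3:104638668-104658462, GRCm38, plus strand) had 145 and 190.5 CPM in NOD samples 1 and 2, against 199.6 and 169 CPM in C57BL/6J samples 1 and 2 (log2 fold change -0.14 ± 0.19, adjusted p = 0.864). NOD sample 1 lay below the other samples, while NOD sample 2 lay between the C57BL/6J values. Slc16a3, the exporter known from strongly glycolytic cells, had low levels, at 0.755 and 0.864 CPM in NOD and 0.574 and 0.648 CPM in C57BL/6J (0.40 ± 0.51, adjusted p = 0.853).

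Pyruvate enters the mitochondrion through a carrier made of MPC1 and MPC2, and both genes lay above 0. Mpc1 (chr17:8282904-8297661, GRCm38, plus strand) had 20.8 and 20.0 CPM in NOD and 14.6 and 15.4 CPM in C57BL/6J, with no overlap of libraries (log2 fold change 0.44 ± 0.22, adjusted p = 0.462). Mpc2 had 42.7 and 35.9 CPM in NOD and 31.2 and 28.0 CPM in C57BL/6J (0.41 ± 0.19, adjusted p = 0.432). Their 95% intervals, -0.05 to 0.94 for Mpc1 and -0.03 to 0.84 for Mpc2, both included 0.

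The subunits of the pyruvate dehydrogenase complex did not lie on 1 side of 0. Pdha1, the catalytic alpha subunit and the highest per kilobase (chrX:160122209-160138413, GRCm38, minus strand), had 132 and 148 CPM in NOD and 177 and 170.3 CPM in C57BL/6J, with no overlap (log2 fold change -0.31 ± 0.16, adjusted p = 0.495). Dlat, the acetyltransferase core, had 27.0 and 34.3 CPM in NOD and 40.0 and 38.1 CPM in C57BL/6J, also with no overlap (-0.35 ± 0.20, adjusted p = 0.558). Pdhb, the beta subunit that pairs with Pdha1, had 48.2 and 54.2 CPM in NOD and 51.3 and 46.2 CPM in C57BL/6J (0.07 ± 0.18, adjusted p = 0.926). Dld, a dehydrogenase that other complexes share, had 77.9 and 75.8 CPM in NOD and 73.9 and 70.8 CPM in C57BL/6J (0.09 ± 0.16, adjusted p = 0.901).

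Of the enzymes that switch the complex, the kinases Pdk2 and Pdk3 had like levels in both strains. Pdk3 (chrX:93764607-93832201, GRCm38, minus strand) had 32.2 and 33.7 CPM in NOD and 38.3 and 33.0 CPM in C57BL/6J (log2 fold change -0.11 ± 0.19, adjusted p = 0.890), and Pdk2 had 14.8 and 17.9 CPM in NOD and 20.1 and 14.6 CPM in C57BL/6J (-0.09 ± 0.25, adjusted p = 0.942). Pdp1, a phosphatase that switches the complex on (chr4:11958184-11966452, GRCm38, minus strand), had 12.7 and 12.8 CPM in NOD and 11.1 and 8.31 CPM in C57BL/6J, with no overlap of libraries (0.39 ± 0.27, adjusted p = 0.674).

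The kinase gene Pdk1, which is not among the 34, did differ. It fell to 32.7 and 33.7 CPM in NOD samples 1 and 2, against 131 and 138 CPM in C57BL/6J samples 1 and 2 (log2 fold change -2.02 ± 0.16, adjusted p = 0.000209). Set beside Pdk2 and Pdk3 per kilobase, Pdk1 made up 19.6% and 18.7% of the 3 kinases in NOD, against 44.2% and 50.3% in C57BL/6J, and Pdk3 58.6% and 56.9% in NOD, against 39.1% and 36.6% in C57BL/6J. The comparison with Pdk1 was chosen after its values were seen.

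Hif1a encodes the oxygen-regulated subunit of hypoxia-inducible factor, which is controlled mainly at the protein. Hif1a RNA (chr12:73901375-73947530, GRCm38, plus strand) had 219.6 and 217 CPM in NOD samples and 239.8 and 226 CPM in C57BL/6J samples (log2 fold change -0.09 ± 0.16, 95% interval -0.45 to 0.26, adjusted p = 0.894).

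The 2 samples of a strain differed from each other by amounts that varied over the pathway. NOD sample 1 over NOD sample 2 came to a ratio of 0.372 for Tpi1, 0.427 for Hk2, 0.605 for Gapdh, 0.759 for Slc16a1, 0.768 for Pkm and 0.787 for Dlat, and to 1.24 for Ldhb and 1.29 for Eno2. The same ratio in C57BL/6J, sample 1 over sample 2, was 1.35 for Tpi1, 0.776 for Hk2, 1.16 for Gapdh, 1.18 for Slc16a1, 1.06 for Pkm, 1.05 for Dlat, 1.42 for Ldhb and 1.24 for Eno2. For Ldhb the C57BL/6J samples thus stood farther apart than the NOD samples, and for Tpi1 and Gapdh the NOD samples did. Both libraries of NOD sample 1 lay below the other 6 for 8 of 33 genes (24.2%), against 13.2% of all genes tested, and above them for 2 (6.06%), against 11.6%. The 8 were Slc2a1, Gpi1, Pfkl, Tpi1, Gapdh, Pkm, Slc16a1 and Dlat, and the 2 were Eno2 and Ldhb.

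The summed cycling-cell genes were low in NOD sample 1, as were those 8 genes, at 1168 CPM in NOD sample 1 and 5103 CPM in NOD sample 2, against 4300.2 and 4752 CPM in C57BL/6J samples 1 and 2. Ldhb and Eno2 were high in NOD sample 1. Within C57BL/6J the cycling sum was lower in sample 1, where Tpi1, Gapdh, Slc16a1 and Pkm were higher. The libraries of C57BL/6J sample 1 did not share this, at 4925 and 3643 CPM, against 4686 and 4886 CPM in those of sample 2. Within C57BL/6J sample 1, Tpi1, Gapdh, Slc16a1 and Pkm were higher in the library with 4925 CPM. Of the cycling-cell list 0 of 18 genes were called by edgeR, DESeq2 or limma-voom and 0 had an unadjusted p under 0.05. Its median log2 fold change was -0.42. Its part in the results was not tested. For the 8 genes with a low NOD sample 1, the ratio of NOD sample 2 to the C57BL/6J mean was 0.883 for Tpi1, 1.03 for Gapdh and 1.03 for Slc16a1. The same ratio was 0.729 for Gpi1, 0.764 for Slc2a1, 0.768 for Pkm, 0.843 for Pfkl and 0.880 for Dlat. These 5 genes lay below all C57BL/6J libraries in the libraries of both NOD samples.

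**Figure D4:**
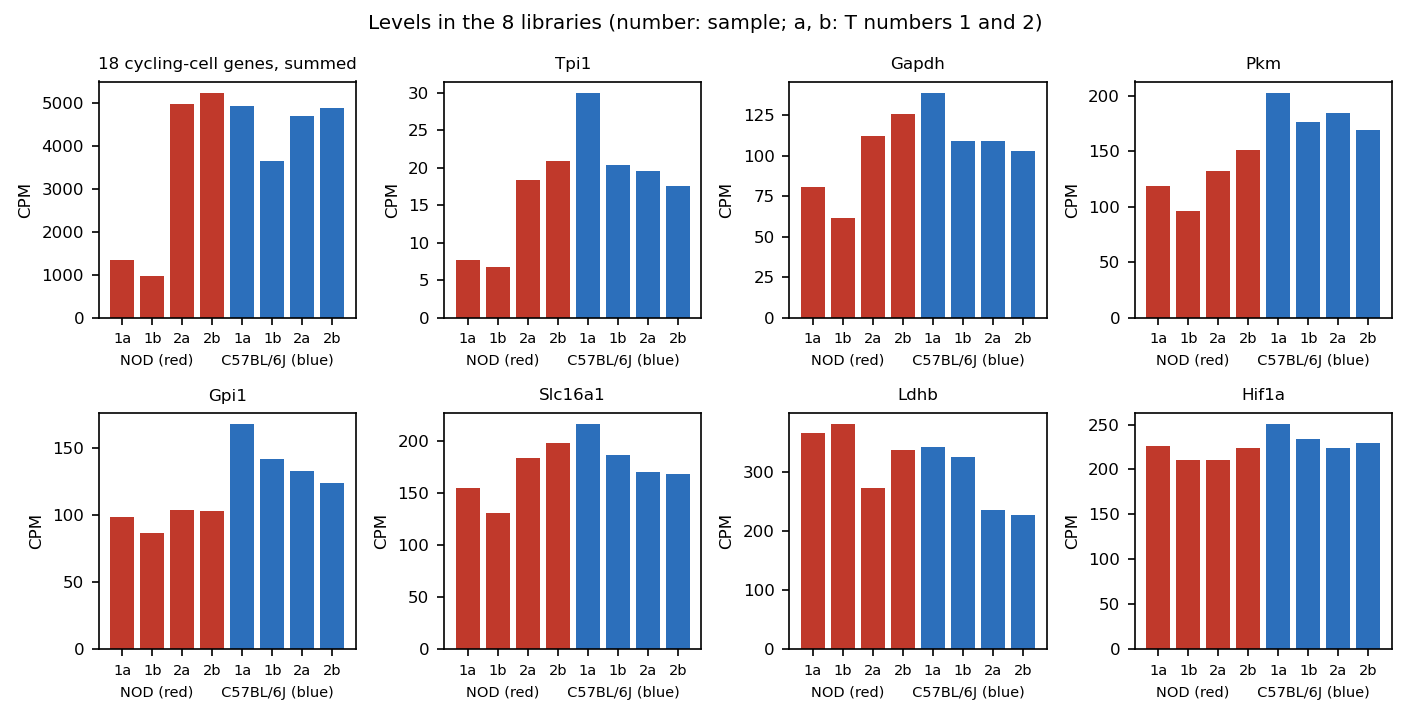
Level (vertical axis, CPM) in each of the 8 libraries of 18 cycling-cell genes summed and of 7 genes of the pathway, NOD in red and C57BL/6J in blue, with the number for the sample and a or b for the T number. Tpi1 and the cycling-cell genes are low in both libraries of NOD sample 1 alone, while Gpi1 and Pkm are lower in all 4 NOD libraries than in any C57BL/6J library.

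The calls depended on which NOD sample entered the fit. Without NOD sample 2, when the lone NOD sample was taken to vary like the C57BL/6J pair, 4.20% of all genes were called lower, and so were 3 of the 33. These were Tpi1 (log2 fold change -1.61 ± 0.36, adjusted p = 0.000301), Pkm (-0.77 ± 0.24, adjusted p = 0.0202) and Gapdh (-0.69 ± 0.24, adjusted p = 0.0424). Over all alternatives the adjusted p ran between 0.000301 and 1.00 for Tpi1, 0.0202 and 0.657 for Pkm, and 0.0424 and 1.00 for Gapdh. Without NOD sample 1 none of the 33 was called and the smallest adjusted p was 0.344. The median log2 fold change of the 33 came to -0.22 when NOD sample 2 was left out and to -0.07 when NOD sample 1 was left out.

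Other lists around the pathway held 0 or 1 gene called by edgeR each, beside 3.68% of all genes tested. With lists this short no share above or below that background is read from them. Of 24 tested genes among 40 others of glycolysis and pyruvate use, 0 were higher and 1, Pdk1, was lower, with a median log2 fold change of 0.21, against 0.02 over all genes. An unadjusted p under 0.05 was also found for Emb, a partner protein of monocarboxylate transporters, for Slc2a8, a glucose transporter, for Ldhd, a D-lactate dehydrogenase, and for Fbp1, an enzyme of glucose synthesis. Emb had 96.1 and 94.3 CPM in NOD, against 151 and 149 CPM in C57BL/6J (-0.65 ± 0.16, adjusted p = 0.0573). The other three lay higher in NOD at low levels, with log2 fold changes of 1.31 ± 0.41 for Slc2a8 (adjusted p = 0.157), 1.31 ± 0.47 for Ldhd (adjusted p = 0.234) and 1.84 ± 0.60 for Fbp1 (adjusted p = 0.178).

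The citrate cycle, which burns the acetyl-CoA, had 1 of 23 genes called lower and 0 higher, with a median of -0.11. That gene was Suclg2, a subunit of succinyl-CoA ligase, at 1.36 and 1.87 CPM in NOD, against 7.38 and 5.35 CPM in C57BL/6J (-1.97 ± 0.39, adjusted p = 0.0263). DESeq2 called 1 gene of the cycle lower and limma-voom 2. The pentose phosphate list, a branch from glucose phosphate, had 1 of 10 called lower, with a median of -0.12. That was Prps2, which makes the precursor of nucleotides, at 128 and 151 CPM in NOD, against 259.9 and 228 CPM in C57BL/6J (-0.81 ± 0.17, adjusted p = 0.0355). Of 21 tested genes of the hypoxia-inducible factor pathway 1 was called by edgeR, Pdk1 again, with a median of -0.06. DESeq2 called 2 of them lower, and so did limma-voom. Epas1 also had an unadjusted p under 0.05, at 2.03 and 2.05 CPM in NOD, against 5.08 and 6.81 CPM in C57BL/6J. Its libraries did not overlap (-1.54 ± 0.37, adjusted p = 0.0583). Of 19 regulators of glucose use 0 were called by edgeR, DESeq2 or limma-voom and 0 had an unadjusted p under 0.05, with a median of 0.01.

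Markers of other cells that the sort could have let through were measured too. Summed over their lists, B cell markers held 248 to 378 CPM in NOD libraries and 338 to 412 CPM in C57BL/6J libraries, 95.8% of it from Ighm. Markers of macrophages, monocytes and granulocytes held 13.7 to 28.0 CPM in NOD and 10.7 to 15.8 CPM in C57BL/6J, and those of thymic epithelium 27.8 to 48.8 CPM in NOD and 20.4 to 32.8 CPM in C57BL/6J. Of the tested markers, 3 of 8 for B cells had a negative fold change, and 0 of 4 for thymic epithelium, whose median log2 fold change was 0.58. Of 7 tested markers of macrophages, monocytes and granulocytes, 1 was called higher in NOD (Csf1r, a growth factor receptor), and 1 had a negative fold change. Of 8 markers of double-negative thymocytes, 1 was called higher (Cd44, an adhesion receptor), while 4 had a negative fold change. Of 10 markers of mature single-positive thymocytes, edgeR called 0, DESeq2 2 higher and limma-voom 1 lower. Of these 10, 4 had an unadjusted p under 0.05, beside 13.1% of all genes tested, and 4 had a negative fold change. All NOD libraries lay above for 3 and below for 1, beside 8.20% and 8.84% of all genes. Their sum was 532 to 595 CPM in NOD and 538 to 822 CPM in C57BL/6J, 73.6% of it from Ifngr1. Fibroblast and endothelium markers summed to 124 to 141 CPM in NOD libraries and 135 to 166 CPM in C57BL/6J libraries, 97.6% of it from Pecam1. Of the 4 tested, 1 was called higher (Col1a2, a collagen chain), and 2 had a negative fold change. Dendritic cell markers summed to 995 to 1447 CPM in NOD and 1079.9 to 1138 CPM in C57BL/6J, 99.7% of it from Ccr9. Of the 4 tested, 0 were called and 0 had a negative fold change. The part of the cells marked by these lists in the results on glycolysis was not tested.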

How the data were processed

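RNA from sorted CD4+ CD8+ thymocytes of NOD/ShiLtJ and C57BL/6J mice was sequenced as 8 stranded total RNA libraries. The authors deposited raw read counts per Ensembl gene, 1 table per library, without normalization. Per the submitters' processing notes, STAR 2.5.0a, HTSeq 0.6.1 and the build GRCm38 were used; the annotation release and strand setting are not given in the sources used here. Reads outside genes made up 46.6% to 59.1% in NOD libraries and 40.0% to 53.9% in C57BL/6J libraries and were left out, as were counters that name no gene. The 37 mitochondrially encoded genes had 0 counts. GENCODE M21 matched 53360 identifiers and left 105 unmatched.

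Libraries of 1 strain and B number were summed to 4 samples. Genes passing filterByExpr were scaled by TMM and tested with edgeR 4.0.16 (R 4.3.3; robust quasi-likelihood F-test, two-sided, strain the sole term, with 2 residual degrees of freedom), with Benjamini-Hochberg adjustment over 17291 genes. The median log2 fold change of all genes was 0.02. Alternatives were RLE factors, no filter on low counts, DESeq2 1.42.0, limma 3.58.1 (voom) on 8 libraries, a replicate block, samples left out and NOD counts thinned to 24.019 M reads. Isoenzyme shares were CPM per kilobase of exon within a step, over 8 steps. Except where Pdk1 was added, they count only genes of the fixed list. Aldoa has 2 identifiers, and the one with more exon bases was used. Promoter windows came from RefSeq (GRCm38.p6). Floors allow for counting error only, as the reads had no molecular identifiers.

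The 34 genes and all lists were chosen with earlier results of these data known. All 34 are named, with full values for genes with an unadjusted p under 0.05, the highest per length in each step, and the highest and lowest fold change. Of other lists, called genes are named, and for glycolysis and pyruvate genes also those with an unadjusted p under 0.05. Eno1b, Eno3 and Epas1 are named as well.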

Additional observations from a re-analysis of the deposited data

Results flagged for a closer look

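Within the 4 libraries of a strain, 68 gene and strain groups were searched for a library far from the other 3, and 4 were found, where chance flags about 1 in 20 groups. Eno2 had 1.36 CPM in the library of NOD sample 2 with T number 2, against 2.21 to 2.39 CPM in the other NOD libraries. Gapdh had 139 CPM in the library of C57BL/6J sample 1 with T number 1, against 103 to 109 CPM in the other C57BL/6J libraries. Dlat had 42.5 CPM in that same library, against 37.8 to 38.3 CPM. Pfkfb3 had 67.1 CPM in the library of C57BL/6J sample 1 with T number 2, against 60.3 to 61.4 CPM.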

How the results depend on the processing

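Of the 33 tested genes of the pathway, edgeR called 0, and 0 also with RLE factors, without a filter on low counts, with NOD counts thinned and in DESeq2. The 8 libraries in limma-voom gave 1 called lower (Gpi1), and leaving out 1 sample gave 0 to 3 called lower (Tpi1, Gapdh and Pkm without NOD sample 2); 0 were called higher in any fit. Nothing in the labels ties the B numbers of the strains to each other, so they were not taken to pair samples. Same-numbered samples of the strains had deviations that correlated at -0.12 over genes. With 2 samples per strain, that value cannot show whether they pair. The replicate block left 0 of the 33 called and 513 genes in all, against 637 without it. A crossed replicate block, chosen after seeing the data, left 0 of the 33 called and 768 genes in all. Over all genes, 1188 were called without the filter, 937 by DESeq2, and 256 to 1389 with 1 sample left out; the fit lacking C57BL/6J sample 1 gave 256, that lacking C57BL/6J sample 2 gave 359, and that lacking NOD sample 2 gave 1389. Of the other glycolysis and pyruvate genes, 1 was called lower, and 2 without the filter, with the crossed replicate block, in DESeq2 and in limma-voom, the second being Emb. The log2 fold change of Pfkp was -0.0043 in limma-voom. With 1 sample left out, the range crossed 0 for Hk2 (-0.51 to 0.72), Pfkm (-0.35 to 0.06), Gapdh (-0.69 to 0.04), Pgk1 (-0.24 to 0.12), Slc16a1 (-0.36 to 0.05), Pdhb (-0.02 to 0.15), Pdk2 (-0.31 to 0.16) and Pfkfb2 (-0.21 to 0.45). Of Eno1 and Eno2 per kilobase, the Eno1 share was lower in NOD, by a difference of -2.72 percentage points. The difference was -1.91 over windows unique to each gene, a scaling chosen after seeing the data. With 2 samples per strain, a p that misses the threshold does not show equal levels. Where not stated, the cause of a difference between settings was not tested.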
